A study of Rattus norvegicus with 33 samples.

Results

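Mammary glands of adult parous rats at postnatal day 181 (n = 5) were compared with glands at the end of lactation, on lactation day 28 at postnatal day 146 (n = 3). These were 8 of the 33 arrays of the series, chosen by the developmental stage in the labels and by no measured value. All rats were female Sprague-Dawley animals, an outbred laboratory strain, given olive oil by stomach tube as vehicle controls of a parent study of chemicals. The left and right glands of the fifth, caudal pair were taken, all animals of a stage were killed on 1 day, and the estrous cycle was not synchronised. Parous and lactating glands therefore also differed in age by 35 days and in the day of collection, and these cannot be told apart from the change of state. The glands of age-matched nulliparous rats at day 181 (n = 5) served as a further point of comparison. The series record counts 3 lactating animals and a note on the samples speaks of 5 at each stage. Arrays are treated here as separate animals. Each gene has 1 spread between arrays of a stage, pooled over all 33 arrays of the 6 stages. The SE and p-values rest on that spread, not on the parous and lactation arrays alone.

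Milk is made by alveolar epithelial cells, which prolactin drives through the receptor-linked kinase JAK2 and the transcription factor STAT5. When suckling stops, milk accumulates, STAT3 is switched on, and most of the secretory epithelium dies and is cleared. Adipocytes refill and collagen-rich matrix is laid down around the ducts that remain, so that the gland of a parous rat resembles a resting one in its outline.

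The arrays report log2 values, made by the authors with the robust multi-array average. All 3 lactation arrays lay in batch 2, parous arrays 1 to 3 in batch 1 and parous arrays 4 and 5 in batch 3, the batch extracted with the Zymo kit. No batch held both groups, so the difference was estimated with terms for batch from all 33 arrays, in which the batch 2 term rests on the younger glands that were in both batch 1 and batch 2. Of the 10986 genes tested, 3610 (32.9%) passed an adjusted p of 0.05, 1334 of them higher (12.1%) and 2276 lower (20.7%) in parous glands. That balance depended on the batch term: without one, 1407 genes were higher and 1594 lower, 1740 of these calls being among the 3610, and with only the parous and lactation arrays 499 were higher and 468 lower, 680 of them among the 3610. The median difference over all genes tested was -0.06 on the log2 scale. The batch 3 term passed for 8501 genes (77.4%). The batch 2 term passed for 6222 genes (56.6%), with a median size of 0.269, against 0.315 for the difference between the stages.

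To favour differences far above that term, a gene was counted as clear of batch where it passed the test, differed at least 2-fold, exceeded its own batch 2 term at least 3 times and had no overlap between the parous and lactation arrays in the deposited values. That left 404 genes (3.68%), 201 higher (1.83%) and 203 lower (1.85%) in parous glands. The groups did not overlap in 3055 of the 10986 genes (27.8%) and in 1598 of the 3610 called genes. For a clear gene the lack of overlap is part of the rule and adds nothing to the call. Called genes that are not clear of batch can overlap, also where no overlap is mentioned below. The rule does not weigh the batch 3 term, which the parous arrays extracted with the Zymo kit carry. At the edge of the ratio, Myo6 and Nr2f1 were inside at 3.01 times their batch term, and Slc7a10 and Vcam1 were outside at 2.98 and 2.96 times. The falls reached further than the rises, with 15 genes at least 8-fold lower and 5 at least 8-fold higher among the genes called. "Rose" and "fell" below are used of parous relative to lactating glands, for genes that passed the test, and each difference is given on the log2 scale with its SE. Every count within a list is to be read against the 12.1% of all genes that rose and the 20.7% that fell.

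**Figure D1:**
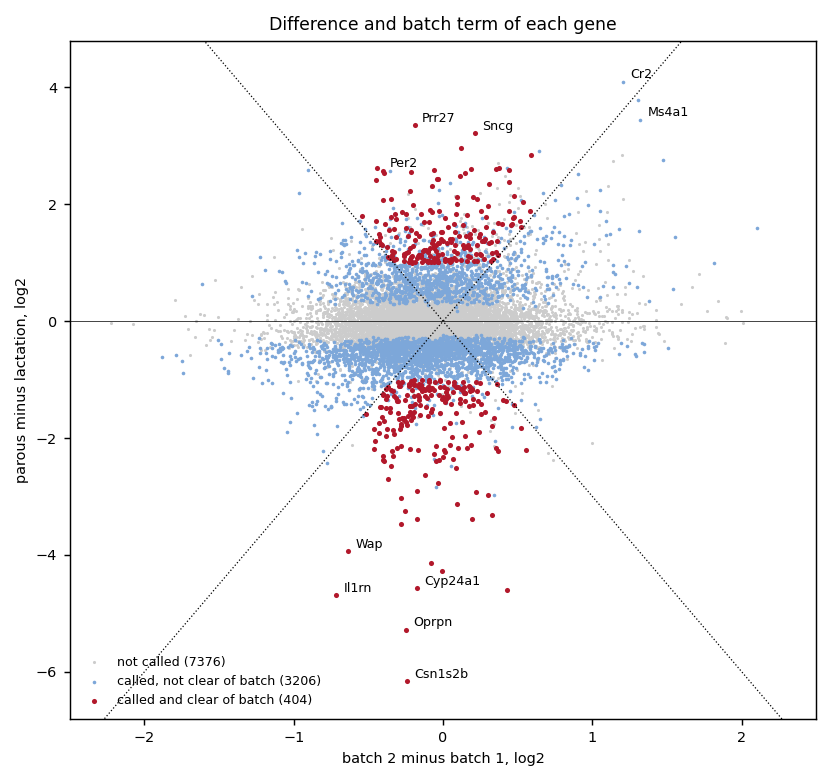
Each point is 1 of 10986 genes, with the batch 2 minus batch 1 term (log2) on the horizontal axis and the parous minus lactation difference (log2) on the vertical axis; dotted lines mark a difference of 3 times the batch term. The 404 genes clear of batch lie in the narrow wedge above and below 0, led by Csn1s2b at -6.16, while Cr2 and Ms4a1 have large differences and large batch terms.

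The caseins are the main milk proteins, packed into micelles with calcium and phosphate. Their genes form a cluster on rat chromosome 14, and STAT5 binds a palindrome written TTCNNNGAA. The promoters of the casein genes that carry this palindrome are shown, with the palindrome in capitals. Each runs 5′ to 3′ from 250 bases before to 50 bases after the gene start, from RefSeq in build GRCr8. They lie at chr14:20545569-20545868 (minus strand) for Csn1s2b, chr14:20574422-20574721 (minus strand) for Csn1s2a, chr14:20601574-20601873 (plus strand) for Csn2 and chr14:20638800-20639099 (minus strand) for Csn1s1.
Csn1s2b: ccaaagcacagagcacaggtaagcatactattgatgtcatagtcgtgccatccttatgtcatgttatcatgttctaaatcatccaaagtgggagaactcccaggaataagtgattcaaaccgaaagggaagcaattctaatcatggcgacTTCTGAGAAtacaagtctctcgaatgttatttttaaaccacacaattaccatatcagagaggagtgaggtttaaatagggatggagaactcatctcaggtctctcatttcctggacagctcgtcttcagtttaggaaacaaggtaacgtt
Csn1s2a: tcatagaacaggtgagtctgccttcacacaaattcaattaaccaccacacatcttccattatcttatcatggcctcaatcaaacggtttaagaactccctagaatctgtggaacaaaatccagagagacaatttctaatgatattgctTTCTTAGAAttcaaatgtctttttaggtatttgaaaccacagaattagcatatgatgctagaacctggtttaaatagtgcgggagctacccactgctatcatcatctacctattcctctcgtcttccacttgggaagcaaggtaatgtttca
Csn2: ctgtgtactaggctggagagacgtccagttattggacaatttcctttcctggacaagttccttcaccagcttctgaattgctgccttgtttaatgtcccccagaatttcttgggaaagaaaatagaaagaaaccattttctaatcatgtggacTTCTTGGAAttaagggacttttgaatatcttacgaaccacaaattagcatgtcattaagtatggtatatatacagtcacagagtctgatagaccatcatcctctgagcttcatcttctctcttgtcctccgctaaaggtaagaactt
Csn1s1: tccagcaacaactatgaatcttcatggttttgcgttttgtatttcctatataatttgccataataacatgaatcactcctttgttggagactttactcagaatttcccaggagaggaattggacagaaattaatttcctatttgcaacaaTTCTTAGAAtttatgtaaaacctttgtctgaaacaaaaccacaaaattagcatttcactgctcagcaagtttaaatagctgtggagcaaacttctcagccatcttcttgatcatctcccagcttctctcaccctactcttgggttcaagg

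The match started 100 bases before the gene start in Csn1s2b and Csn1s1, 102 before it in Csn1s2a and 97 before it in Csn2, and each promoter held 1 match. The palindrome reads the same on both strands and occurred in 8.87% of 33469 rat promoters of this length. Aligned on the match without gaps, the 69 bases around it were identical at 39.1% to 56.5% of positions between pairs of the 4 genes. Csn3, the kappa casein, had a listed promoter with no match in this window.

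Of 6 genes tested in the list of caseins and neighbouring secreted proteins, 1 fell and none rose, a share of falls near the 20.7% over all genes. Prr27, which RefSeq places between Odam and Csn1s2b, was not on that list and is described with the rises. Csn1s2b, an alpha-S2-like casein, read 7.85, 8.66, 7.70, 8.48 and 8.75 in the parous arrays, against 13.87, 14.00 and 13.95 in the lactation arrays. Its highest value in any array outside lactation was 8.75, below every lactation array. As the gene with the largest difference of those tested, it cannot serve as a check of the stage label. The difference was -6.16 ± 0.21 (adjusted p = 1.24e-18), against a batch 2 term of -0.24. No other gene tested differed as much. Its lactation values were close to the highest value in the whole table, 14.228, where values can be compressed, so no fold is given.

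The other caseins stayed near the top of the scale in both states. Csn2, the beta casein, read 12.86, 13.02, 12.66, 12.69 and 12.50 in the parous arrays, against 13.12, 13.48 and 13.20 in the lactation arrays. The 2 groups did not overlap, but the difference of -1.04 ± 0.85 did not pass the test (adjusted p = 0.358). The SD of Csn2 was 0.2 in the parous and 0.19 in the lactation arrays, but 1.81 in the pubertal arrays. The pooled spread behind the SE includes the younger glands. Csn1s2a had 12.48, 12.76, 11.47, 11.84 and 11.84 in the parous arrays, against 13.45, 13.87 and 13.68 in the lactation arrays, a difference of -2.12 ± 1.03 (adjusted p = 0.113) that also did not pass. Csn1s1 differed by -0.23 ± 0.60 and Csn3 by -0.65 ± 0.34 (adjusted p = 0.801 and 0.14). Their values too were close enough to the highest in the table to be compressed. The palindrome was present in promoters of a gene that fell and of 3 that did not pass. Missing the threshold does not show that those 3 transcripts were unchanged, so nothing about the palindrome is drawn from this.

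Of 11 tested genes of whey and other secreted milk proteins, 4 fell and none rose. Wap, the whey acidic protein of rodent milk, read 10.55, 12.38, 9.51, 10.68 and 11.18 in the parous arrays, against 13.73, 14.03 and 13.79 in the lactation arrays. All 5 parous values were below the lactation values but spread widely, and the difference was -3.94 ± 0.91 (adjusted p = 0.00147). Lpo, lactoperoxidase, an antibacterial enzyme of milk, had 9.49, 8.88, 9.03, 7.49 and 7.76 in the parous arrays, against 12.08, 12.51 and 12.07 in the lactation arrays, with the arrays of batch 3 lowest. It fell by 3.39 ± 0.24 on the log2 scale (adjusted p = 3.74e-11). Wfdc18, a small protein of the same fold as whey acidic protein, fell (-2.48 ± 0.37, adjusted p = 1.09e-05), although parous array 5, at 7.91, overlapped the lactation arrays. Spp1, osteopontin, fell less (-1.14 ± 0.25, adjusted p = 0.000854) and did not pass without a batch term (-0.75, adjusted p = 0.0712). Lalba, alpha-lactalbumin, which turns a galactosyltransferase into lactose synthase, ran from 13.09 to 13.48 in the parous arrays, against 13.58 to 13.79 in the lactation arrays, and its difference of -0.99 ± 0.76 did not pass (adjusted p = 0.323). Glycam1 and Lcn2, which encodes the iron-chelator-binding protein lipocalin 2, did not pass either, at -0.49 ± 1.46 and -0.90 ± 0.55.

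**Figure D2:**
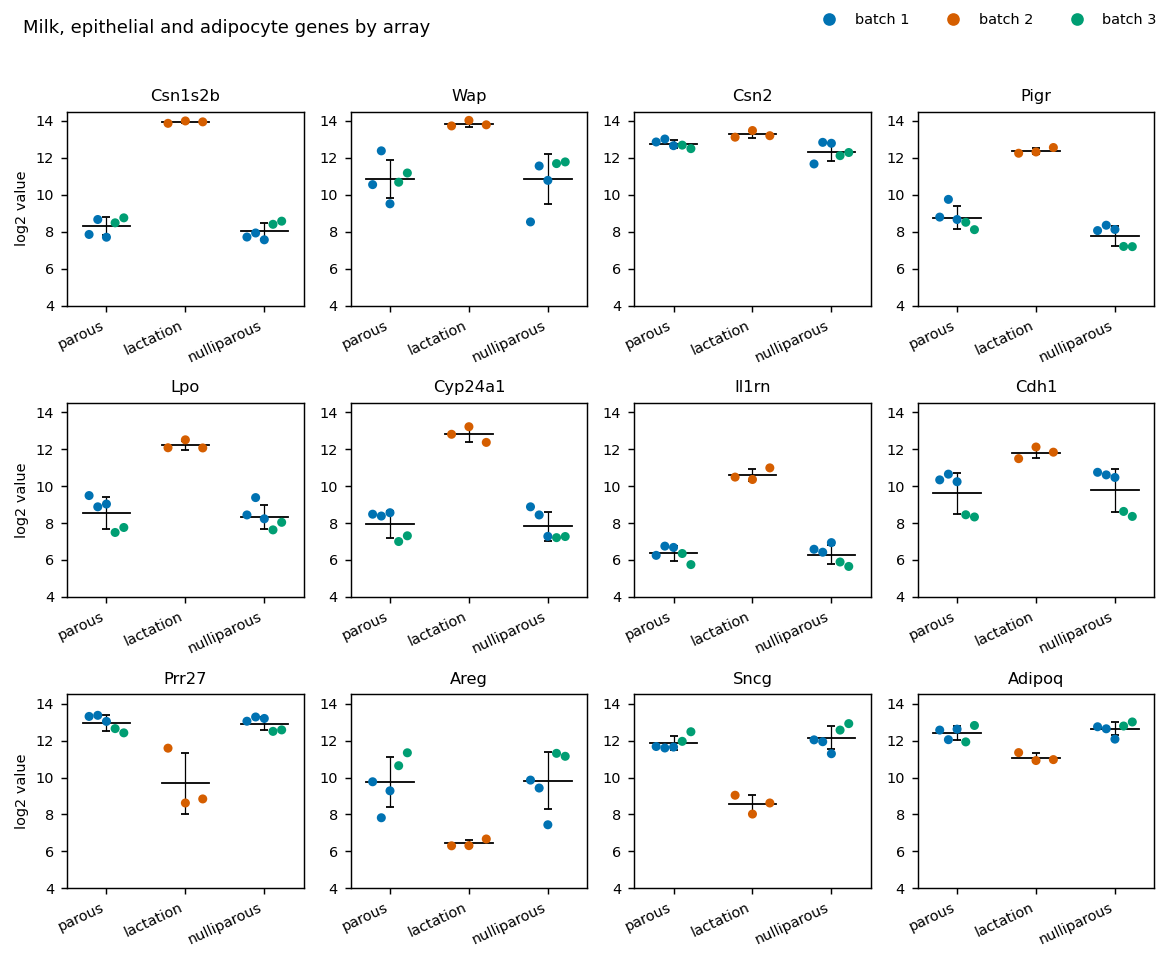
Deposited log2 values of 12 genes in each parous, lactation and nulliparous array, coloured by batch; the line is the mean and the bars are the SD (n = 5, 3 and 5). Csn1s2b, Lpo, Pigr, Cyp24a1 and Il1rn are high in the 3 lactation arrays, Sncg, Areg and Adipoq are low there, and Csn2 is at or above 11.67 in every array shown.

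Oprpn, which encodes the precursor of the peptide opiorphin, had 4.61, 4.55, 4.56, 4.78 and 4.84 in the parous arrays, against 9.23, 10.22 and 9.40 in the lactation arrays. Its parous values lay below the filter on low values, which asked for a value above 7.645 in at least 3 arrays, so the difference of -5.28 ± 0.74 (adjusted p = 4.24e-06) is less exact than others. Lao1, an L-amino acid oxidase that makes hydrogen peroxide in mouse milk, fell as well (-4.14 ± 0.36, adjusted p = 2.4e-09), with 8.73 in parous array 2 and 7.20 to 7.56 in the other parous arrays. Il1rn, the antagonist of the interleukin-1 receptor, read 6.25, 6.75, 6.68, 6.35 and 5.75 in the parous arrays, against 10.49, 10.36 and 10.99 in the lactation arrays and fell by 4.69 ± 0.45 on the log2 scale (adjusted p = 1.17e-08). Cyp24a1, the enzyme that inactivates vitamin D, read 8.48, 8.38, 8.56, 7.0 and 7.31 in the parous arrays, against 12.81, 13.22 and 12.37 in the lactation arrays. It differed by -4.57 ± 0.43 (adjusted p = 9.7e-09). Cpm, a carboxypeptidase, Ceacam4, a cell-surface protein of the immunoglobulin family, and Clec2dl1 differed by -4.28 ± 0.33, -4.59 ± 0.30 and -3.25 ± 0.32. Arg2, a mitochondrial arginase, differed by -3.02 ± 0.39, Slc5a9, a sodium-coupled sugar transporter, by -3.47 ± 0.28, Tspan1, a tetraspanin, by -3.39 ± 0.38 and Cyp2j10, a cytochrome P450, by -3.13 ± 0.32. All of these were clear of batch. Oprpn, Il1rn, Clec2dl1 and Cyp2j10 were above the filter in fewer than 3 arrays outside lactation, so they entered the test only through the group in which they were high; 15 of the 203 falls clear of batch, these 4 included, did so. Wfdc18, a called fall that was not clear of batch, did so too. Of the 15 largest falls, 11 had a listed promoter, and 3 of those, of Csn1s2b, Oprpn and Lao1, held the palindrome. Of the 15 largest rises, 12 had one, and that of Prr27 held the palindrome.

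Pigr carries dimeric immunoglobulin A across the epithelium, and its values were 8.79, 9.75, 8.66, 8.51 and 8.11 in the parous arrays, against 12.25, 12.32 and 12.56 in the lactation arrays. It fell by 2.97 ± 0.34 on the log2 scale (adjusted p = 1.61e-07), and the groups were more than 2 log2 units apart. In the list of antibody transfer and plasma cells 3 of 11 genes rose and 2 fell. Fcgrt, the Fc receptor for immunoglobulin G, rose (0.80 ± 0.18, adjusted p = 0.0009). Mzb1, a plasma cell gene, rose too (1.84 ± 0.65, adjusted p = 0.0297), with 8.63 to 11.36 in parous arrays against 7.52 to 7.73 in lactation arrays, but the call was lost without parous array 3, lactation array 1, lactation array 2 or lactation array 3 (adjusted p 0.0514 to 0.12).

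Milk fat leaves the cell wrapped in membrane, with xanthine dehydrogenase, butyrophilin and perilipin 2 at the droplet surface. Of 9 such genes, 4 fell and 1 rose. Cidea, which joins lipid droplets, read 10.02, 9.66, 10.00, 9.87 and 10.75 in the parous arrays, against 12.01, 12.90 and 12.18 in the lactation arrays, a difference of -2.17 ± 0.29 (adjusted p = 1.96e-06). Cidea is also a brown adipocyte gene. Only Cidea and Lhx8 of the 8 measured genes of the brown adipocyte list were tested, and the mean of the 7 genes other than Cidea was 5.39 to 5.79 in parous arrays against 5.54 to 5.72 in lactation arrays. Ucp1, the defining gene of brown fat, read 4.85 to 5.01 in parous arrays against 4.74 to 5.04 in lactation arrays, far below the filter. Plin2, perilipin 2, differed by -1.05 ± 0.23, Xdh by -0.81 ± 0.19 and Mfge8 by -0.51 ± 0.13. Btn1a1, butyrophilin, did not pass: it had 12.91, 12.88, 12.62, 10.46 and 10.29 in the parous arrays, against 12.52, 12.07 and 12.40 in the lactation arrays, so the batch 3 arrays were the low ones, and the difference was -0.14 ± 0.78 (adjusted p = 0.909). Fabp3, the heart-type fatty acid binding protein, rose (1.67 ± 0.49, adjusted p = 0.0103), but not without lactation array 2 (adjusted p = 0.0546). Without a batch term Mfge8 no longer passed, at a larger difference of -0.65 (adjusted p = 0.0755).

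In the synthesis of fatty acids and triglyceride, 8 of 29 genes rose and 6 fell, the falls near the 20.7% over all genes. The falls included the acyl-CoA synthetases Acsl4, with 9.04, 8.60, 8.95, 8.24 and 8.17 in the parous arrays, against 11.56, 11.06 and 10.94 in the lactation arrays, and Acsl3. They differed by -2.12 ± 0.20 (adjusted p = 9.7e-09) and -1.48 ± 0.24 (adjusted p = 3.33e-05). Acsl3 overlapped, with 8.11 to 9.66 in the parous arrays, against 9.59 to 10.47 in the lactation arrays. Slc25a1, the mitochondrial citrate carrier, and Gpat4, which starts triglyceride synthesis, fell by 1.05 ± 0.19 and 0.64 ± 0.13 on the log2 scale. The rises included Dgat2, which completes triglycerides, with 10.87, 11.01, 10.79, 9.54 and 9.76 in the parous arrays, against 8.71, 8.69 and 8.56 in the lactation arrays and a difference of 1.72 ± 0.24 (adjusted p = 4.53e-06). The desaturase genes Fads2, Scd2 and Fads1 rose by 2.19 ± 0.36, 2.02 ± 0.20 and 1.51 ± 0.30, and Srebf1, their transcriptional activator, by 1.71 ± 0.26. In these 4 genes the parous arrays of batch 3 overlapped the lactation arrays (Scd2 read 9.59 to 11.48 in the parous arrays, against 9.04 to 9.84 in the lactation arrays), and Fads1 and Srebf1 did not pass without a batch term (0.66 and 1.33, adjusted p = 0.427 and 0.0717). Lpl, lipoprotein lipase, rose by 0.92 ± 0.15, with overlap (11.42 to 12.65 in the parous arrays, against 11.46 to 11.55 in the lactation arrays).

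Of 13 genes of sterol synthesis 10 fell and none rose, with a median of -0.84. Lss, lanosterol synthase, read 8.36, 8.48, 8.48, 7.54 and 7.21 in the parous arrays, against 9.57, 8.91 and 9.27 in the lactation arrays and differed by -1.11 ± 0.14 (adjusted p = 8.52e-07). It was the only one of the 10 clear of batch. Sqle, Nsdhl and Fdft1, enzymes before and after lanosterol, differed by -1.44 ± 0.27, -1.44 ± 0.18 and -1.41 ± 0.21. Idi1, the isopentenyl diphosphate isomerase, read 6.33, 7.22, 7.14, 9.27 and 9.28 in the parous arrays, against 11.39, 8.48 and 8.20 in the lactation arrays and differed by -2.05 ± 0.51 (adjusted p = 0.00281), with overlap through the batch 3 arrays. Idi1, Sqle and Fdft1 did not pass without a batch term, at -1.51, -0.84 and -0.76 (adjusted p = 0.0673, 0.0565 and 0.077).

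Of 20 mineral, vitamin and ion transport genes 7 fell and 2 rose. Abcg2, the pump that exports riboflavin and many drugs into milk, had 8.07, 8.78, 7.60, 9.57 and 9.77 in the parous arrays, against 10.19, 10.61 and 10.48 in the lactation arrays, a difference of -2.23 ± 0.33 (adjusted p = 8.4e-06). Slc39a8, a zinc and manganese importer, had 8.82, 9.10, 8.32, 8.86 and 9.33 in the parous arrays, against 10.94, 11.32 and 10.96 in the lactation arrays and fell by 1.82 ± 0.17 on the log2 scale (adjusted p = 6.07e-09). Folr1, the folate receptor, fell (-1.43 ± 0.26), as did Slc30a4, a zinc exporter (-0.85 ± 0.27), although the Slc30a4 call was lost without parous array 3 or lactation array 2 (adjusted p 0.0509 to 0.146) and neither passed without a batch term (-0.83 and -1.19, adjusted p = 0.0757 and 0.0979). Rbp4, the carrier of retinol in blood, which adipocytes also make, rose with 11.54, 11.08, 11.43, 11.15 and 11.82 in the parous arrays, against 8.14, 7.95 and 8.41 in the lactation arrays and a difference of 2.62 ± 0.28 (adjusted p = 5.48e-08). Stra6, its receptor, rose (1.07 ± 0.36, adjusted p = 0.0235), with the call lost without parous array 2, lactation array 1 or lactation array 3 (adjusted p 0.0587 to 0.0696) and without a batch term, where the difference was 1.15 (adjusted p = 0.0888).

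Of 21 amino acid transporters 6 rose and 5 fell, the falls near the 20.7% over all genes. Slc1a4, a carrier of alanine, serine and cysteine, read 8.51, 8.90, 8.58, 7.55 and 7.03 in the parous arrays, against 11.04, 10.32 and 10.91 in the lactation arrays and differed by -2.13 ± 0.17 (adjusted p = 7.03e-10). Slc7a1, which imports lysine and arginine, fell by 1.17 ± 0.23 and Slc7a5, which imports large neutral amino acids, by 1.23 ± 0.33 on the log2 scale. Slc1a5, a glutamine carrier of the same family as Slc1a4, went the other way, with 9.86, 9.88, 10.06, 9.71 and 9.07 in the parous arrays, against 7.89, 8.46 and 7.53 in the lactation arrays and a difference of 1.57 ± 0.22 (adjusted p = 3.53e-06). Slc36a2, a proton-coupled carrier of small amino acids, rose by 1.33 ± 0.23. The Slc7a5 call was lost without lactation array 2 (adjusted p = 0.0523) and without a batch term (-0.80, adjusted p = 0.257). Of 10 genes of lactose synthesis and glucose use 4 fell and 1 rose. Hk2, a hexokinase, differed by -0.83 ± 0.20, B4galt1, the galactosyltransferase that alpha-lactalbumin directs to glucose, by -0.52 ± 0.14 and Ugp2, which makes UDP-glucose, by -0.49 ± 0.16. B4galt1 lost its call without lactation array 2 and Ugp2 without lactation array 3 (adjusted p = 0.05 and 0.0979), and Ugp2 also without a batch term (-0.34, adjusted p = 0.186). Slc2a1, the basal glucose transporter, did not pass (-0.52 ± 0.20, adjusted p = 0.0519).

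Of 22 genes of luminal epithelium 11 fell and 1 rose, with a median of -1.16, and the mean of the list was 9.12 to 9.70 in parous arrays against 10.04 to 10.48 in lactation arrays. In whole-gland RNA, fewer cells of a type and less RNA per cell cannot be told apart. Krt7, a keratin of simple epithelia, read 6.79, 6.74, 6.90, 8.10 and 8.0 in the parous arrays, against 8.97, 11.62 and 10.46 in the lactation arrays. It fell by 3.32 ± 0.47 on the log2 scale (adjusted p = 5.69e-06). Krt8 and Krt18, which pair with each other in simple epithelia, differed by -2.42 ± 0.44 and -1.42 ± 0.42. Krt8 overlapped, with 9.08 to 10.64 in the parous arrays, against 10.37 to 11.2 in the lactation arrays. Cdh1, E-cadherin, which joins epithelial cells, had 10.34, 10.65, 10.24, 8.45 and 8.33 in the parous arrays, against 11.49, 12.12 and 11.84 in the lactation arrays and a difference of -1.85 ± 0.45 (adjusted p = 0.00229). Spint1, an inhibitor of epithelial serine proteases, and Marveld3, a tight junction protein, differed by -1.47 ± 0.36 and -1.39 ± 0.21. Epcam, the pan-epithelial adhesion gene, read 9.83 to 11.70 in the parous arrays, against 12.02 to 12.23 in the lactation arrays, and its difference of -1.68 ± 0.81 did not pass (adjusted p = 0.11). Prom1, prominin 1 of apical protrusions, was the single rise, with 8.15 to 9.54 in the parous arrays, against 6.37 to 7.65 in the lactation arrays and 1.89 ± 0.39 (adjusted p = 0.000428). Krt18 lost its call without lactation array 2 (adjusted p = 0.0667), and Krt8 did so without a batch term (-1.15, adjusted p = 0.0782).

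Tight junctions seal the alveoli during lactation, and 7 of 14 such genes fell while 1, the endothelial claudin Cldn5, rose (0.78 ± 0.22). Without a batch term its difference was larger but did not pass (1.15, adjusted p = 0.18). Cldn5 read 7.72, 7.60, 7.88, 10.61 and 10.27 in the parous arrays, against 7.98, 7.35 and 7.66 in the lactation arrays. Only the parous arrays of batch 3 were thus above the lactation range. The nulliparous arrays of batch 3 read 10.51 and 10.64. Ocln, occludin, read 9.74, 9.85, 9.49, 9.07 and 9.74 in the parous arrays, against 11.01, 11.41 and 10.96 in the lactation arrays and differed by -1.5 ± 0.28 (adjusted p = 0.000167). Marveld2, tricellulin, which closes the corners between 3 cells, had 7.88, 8.15, 7.71, 7.97 and 8.23 in the parous arrays, against 8.99, 9.05 and 9.03 in the lactation arrays. The groups did not overlap, and the difference was -1.13 ± 0.24 (adjusted p = 0.000569). F11r, a junctional adhesion molecule, differed by -1.33 ± 0.14. Cldn4 differed by -1.72 ± 0.48, with 1 lactation array at 11.99 and the others at 9.87 and 9.95, and lost its call without that array (adjusted p = 0.0789) and without a batch term (-1.35, adjusted p = 0.0869).

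Genes of the hormone-sensing luminal cells, which carry estrogen and progesterone receptors and signal to their neighbours, had 4 rises and 1 fall among 11 tested, with a median of 0.85. Differences in the list ran from -1.02 to 2.44, and the genes described for it do not include the fall. Areg, amphiregulin, the epidermal growth factor receptor ligand that estrogen induces for duct growth, read 9.77, 7.82, 9.28, 10.64 and 11.34 in the parous arrays, against 6.30, 6.31 and 6.67 in the lactation arrays. The difference was 2.44 ± 0.69 (adjusted p = 0.00712), and the gene was clear of batch. Foxa1, which opens chromatin for the estrogen receptor, rose (1.12 ± 0.38, adjusted p = 0.0228), as did Wnt4, a progesterone target (0.78 ± 0.24, adjusted p = 0.0151), and Tbx3 (1.06 ± 0.31, adjusted p = 0.00856). Tbx3 overlapped, with 7.79 to 9.28 in the parous arrays, against 7.31 to 8.12 in the lactation arrays. Foxa1 lost its call without parous array 2, lactation array 1 or lactation array 3 (adjusted p 0.0545 to 0.0724), and Wnt4 without lactation array 3 (adjusted p = 0.105). Pgr, the progesterone receptor, read 10.47, 7.77, 10.03, 8.04 and 8.67 in the parous arrays, against 7.76, 6.24 and 7.04 in the lactation arrays, and its difference of 2.18 ± 0.86 just failed the threshold (adjusted p = 0.0522). Esr1, the estrogen receptor, differed by -0.04 ± 0.24 (adjusted p = 0.908).

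Of 22 genes of prolactin and STAT5 signalling 5 rose and 1 fell. Prlr, the prolactin receptor, ran from 8.69 to 9.62 in the parous arrays, against 7.89 to 8.70 in the lactation arrays, and its difference of 0.85 ± 0.35 did not pass (adjusted p = 0.0659). Stat5a rose (0.71 ± 0.22, adjusted p = 0.0127), but not without lactation array 2 (adjusted p = 0.137) or without a batch term (0.45, adjusted p = 0.433). It overlapped, with 8.89 to 10.92 in the parous arrays, against 8.84 to 10.01 in the lactation arrays. Elf5, the factor that commits cells to the alveolar fate, had 9.91 to 12.07 in the parous arrays, against 11.55 to 12.15 in the lactation arrays and a difference of -0.04 ± 0.62 (adjusted p = 0.97). Cish, a feedback gene that STAT5 induces, did not pass (-0.36 ± 0.28, adjusted p = 0.332). Erbb4, the neuregulin receptor that also acts on STAT5, rose with 8.51, 8.74, 8.37, 6.76 and 7.13 in the parous arrays, against 6.62, 6.0 and 6.17 in the lactation arrays, a difference of 1.81 ± 0.41 (adjusted p = 0.00116). Tph1, which makes the serotonin that feeds back on milk secretion, and Ccnd1, cyclin D1, rose by 2.36 ± 0.85 and 1.22 ± 0.21. Tph1 overlapped, with 7.13 to 9.76 in the parous arrays, against 5.77 to 7.17 in the lactation arrays. It lost its call without parous array 1, parous array 3, lactation array 2 or lactation array 3 (adjusted p 0.0703 to 0.102).

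Among 17 basal and myoepithelial genes 6 rose and 1 fell, none of them clear of batch. Differences in the list ran from -0.54 to 0.95, with a median of 0.56. The list mean overlapped, with 8.71 to 9.64 in parous arrays against 8.81 to 9.12 in lactation arrays. The contractile genes Mylk and Tagln differed by 0.72 ± 0.15 and 0.57 ± 0.20. Mylk read 7.83 and 7.92 in parous arrays 4 and 5, below the 8.46 to 8.88 of the lactation arrays. It did not pass without a batch term (0.28, adjusted p = 0.626). Tagln lost its call without parous array 1 or 2 or lactation array 1 or 3 (adjusted p 0.0529 to 0.0896). None of 27 cell division genes passed in limma's test. Mki67, the proliferation marker, had 8.59, 11.36, 9.14, 9.22 and 8.09 in the parous arrays, against 9.26, 8.51 and 8.96 in the lactation arrays, with parous array 2 highest, and Top2a, a topoisomerase of dividing cells, was highest there too. Their differences were 1.12 ± 0.79 and 1.14 ± 0.78 (adjusted p = 0.283 and 0.265).

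**Figure D3:**
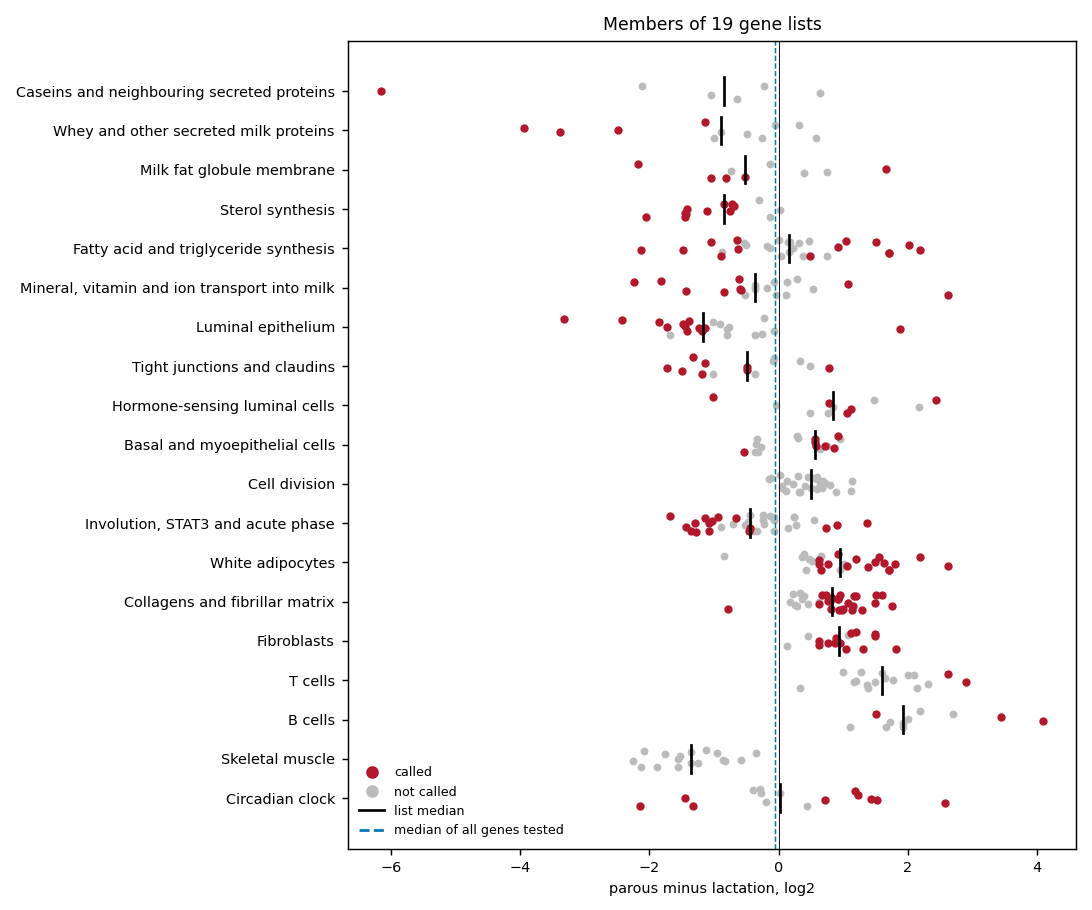
Each point is 1 tested member of 19 gene lists, placed by its parous minus lactation difference (log2); red points passed the test, black bars are list medians and the dashed line is the median of all genes tested (-0.06). Sterol synthesis, luminal epithelium and tight junction genes lie mostly below 0, white adipocyte, collagen and fibroblast genes mostly above it, and no muscle or cell division gene passed.

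STAT3 and the acute phase genes are known for the first days after weaning. Of 35 such genes 13 fell in parous glands and 3 rose, with a median of -0.44. Stat3 itself read 11.81, 11.78, 11.78, 10.69 and 10.28 in the parous arrays, against 12.34, 12.91 and 12.26 in the lactation arrays. The groups did not overlap, and the difference was -1.08 ± 0.17 (adjusted p = 3.11e-05). Osmr, the oncostatin M receptor that signals to STAT3, had 10.55, 10.10, 10.32, 8.44 and 8.39 in the parous arrays, against 11.48, 12.38 and 11.47 in the lactation arrays and differed by -1.36 ± 0.27 (adjusted p = 0.000255). Socs3, the feedback inhibitor of STAT3, read 7.95, 7.69, 7.85, 7.68 and 6.62 in the parous arrays, against 8.23, 10.08 and 8.61 in the lactation arrays and differed by -1.27 ± 0.37 (adjusted p = 0.00921), with the call lost without lactation array 2, the highest (adjusted p = 0.102). Of the cell death genes, Bcl2l11, which encodes BIM, differed by -1.29 ± 0.25 and Bak1 by -1.13 ± 0.21; without a batch term Bak1 was -1.08 and did not pass (adjusted p = 0.06). The lysosomal proteases Ctsd and Ctsl, which act in cell death and clearance, differed by -1.08 ± 0.15 and -1.03 ± 0.21. Gpnmb and Cd14, which macrophages express, differed by -1.69 ± 0.32 and -1.44 ± 0.32. Lbp, an acute phase protein, did not pass (-0.48 ± 0.37, adjusted p = 0.34), nor did Tgfb3, which milk stasis induces (-0.70 ± 0.31, adjusted p = 0.081).

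The rises in that list were in Clu, clusterin (0.90 ± 0.20), Igfbp3 (1.37 ± 0.39) and the death-associated kinase Dapk1 (0.73 ± 0.28), but Dapk1 turned to -0.15 without a batch term and lost its call without most single arrays (adjusted p 0.0515 to 0.191). Tgfb2 was the member of the growth factor list with the largest fall, with 9.42, 9.53, 8.97, 8.24 and 8.88 in the parous arrays, against 10.37, 10.94 and 10.59 in the lactation arrays and -1.61 ± 0.26 (adjusted p = 2.48e-05). Of 24 genes of TGF-beta, BMP and IGF signalling, 10 rose and 3 fell, and 1 of the rises was clear of batch. Igf1, insulin-like growth factor 1, read 11.77, 11.46, 12.15, 11.60 and 12.14 in the parous arrays, against 10.71, 10.66 and 10.43 in the lactation arrays, all parous arrays above all lactation arrays, and differed by 1.05 ± 0.18 (adjusted p = 8.9e-05). Igfbp6, which binds IGF2, rose by 1.14 ± 0.23. In complement, 5 of 13 genes rose and 2 fell. C3, the hub of the cascade, read 10.72, 10.84, 10.23, 8.96 and 8.4 in the parous arrays, against 12.48, 12.09 and 12.99 in the lactation arrays and fell by 2.31 ± 0.40 on the log2 scale (adjusted p = 6.25e-05).

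Of 25 genes of white adipocytes 16 rose and none fell, with a median of 0.94; the background of rises over all genes was 12.1%. Adipoq, adiponectin, read 12.57, 12.05, 12.62, 11.93 and 12.82 in the parous arrays, against 11.35, 10.92 and 10.97 in the lactation arrays. Every parous value exceeded every lactation value, and the difference was 1.49 ± 0.21 (adjusted p = 5.69e-06), 2.81-fold. Cidec, which enlarges the single droplet of white fat, had 11.27, 10.76, 11.02, 10.41 and 11.12 in the parous arrays, against 9.29, 8.89 and 9.18 in the lactation arrays and rose by 1.71 ± 0.27. Plin1, which coats that droplet, and Cfd, adipsin, rose by 1.63 ± 0.26 and 1.81 ± 0.26. Plin1 overlapped, with 9.26 and 9.78 in parous arrays 4 and 5 against 9.25 to 9.86 in the lactation arrays. Sncg, gamma-synuclein, which adipocytes and neurons express, was the gene with the second largest rise clear of batch, with 11.68, 11.60, 11.65, 11.96 and 12.48 in the parous arrays, against 9.04, 8.02 and 8.62 in the lactation arrays and 3.21 ± 0.29 (adjusted p = 4.17e-09). Npr3, the clearance receptor for natriuretic peptides, Acvr1c, an activin-family receptor, and Adrb3, the adrenergic receptor of fat, differed by 2.19 ± 0.55, 1.56 ± 0.35 and 1.06 ± 0.24. Lep, leptin, rose (1.38 ± 0.52, adjusted p = 0.0427), but the call was lost without parous array 1 or 3 or lactation array 1 or 3 (adjusted p 0.0842 to 0.107) and without a batch term (0.68, adjusted p = 0.263). Pparg, the master regulator, and Retn, resistin, did not pass (0.52 ± 0.26, adjusted p = 0.127, and -0.85 ± 0.35, adjusted p = 0.0614).

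Of 33 genes of collagens and fibrillar matrix 23 rose and 1 fell, with a median of 0.83. The mean of the list was 9.94, 10.43, 10.02, 9.17 and 9.13 in the parous arrays, against 9.40, 9.27 and 9.23 in the lactation arrays. The parous arrays of batch 3 were thus below all lactation arrays, and 5 of the 23 rises were clear of batch. Lum, lumican, a proteoglycan that orders collagen fibrils, read 10.44, 11.51, 10.73, 11.79 and 11.96 in the parous arrays, against 9.42, 9.17 and 8.97 in the lactation arrays. The difference was 1.76 ± 0.30 (adjusted p = 6.23e-05), with no overlap. Ogn, osteoglycin, had 11.80, 11.68, 12.29, 11.30 and 11.87 in the parous arrays, against 11.01, 10.74 and 10.87 in the lactation arrays and 1.30 ± 0.18 (adjusted p = 4.43e-06). Mfap5 of microfibrils and Sparc, which binds collagen, rose by 1.60 ± 0.36 and 0.94 ± 0.10. Col1a1, Fn1 and Bgn, which encode type I collagen, fibronectin and biglycan, rose by 1.5 ± 0.25, 1.51 ± 0.23 and 1.20 ± 0.14, but their parous arrays of batch 3 overlapped the lactation arrays (Col1a1 read 9.46 to 12.44 in the parous arrays, against 9.57 to 10.77 in the lactation arrays), and none of these 3 passed without a batch term (0.68, 0.63 and 0.68, adjusted p = 0.312, 0.375 and 0.279). Lox, the enzyme that crosslinks collagen and elastin, fell (-0.78 ± 0.29, adjusted p = 0.0402), although its call was lost without parous array 1 or 4 or lactation array 1 or 3 (adjusted p 0.0526 to 0.138). Eln, elastin, did not pass (0.18 ± 0.20, adjusted p = 0.496).

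Of 18 fibroblast genes 14 rose and none fell, 2 of them, Col1a1 and Dcn, also counted above. Vim, vimentin, read 13.30, 13.15, 13.33, 12.75 and 12.87 in the parous arrays, against 12.01, 12.25 and 12.07 in the lactation arrays, with a difference of 0.89 ± 0.07 (adjusted p = 2.7e-10). Sfrp2, a secreted Wnt modulator, had 10.20, 10.70, 10.33, 9.61 and 9.79 in the parous arrays, against 8.94, 8.10 and 8.38 in the lactation arrays and rose by 1.49 ± 0.31. Among 23 matrix proteases and inhibitors 9 rose and 3 fell, with none of the rises clear of batch. Timp1, an inhibitor of metalloproteases, differed by -1.38 ± 0.29, not without a batch term (-0.58, adjusted p = 0.172), and Mmp12, the macrophage elastase, with 10.57, 10.05, 10.59, 10.51 and 11.13 in the parous arrays, against 11.38, 11.92 and 11.52 in the lactation arrays, differed by -1.35 ± 0.31 (adjusted p = 0.00153). Of 10 Schwann cell and nerve genes, S100b and Pmp22 rose by 2.10 ± 0.28 and 1.30 ± 0.20, while Erbb3 and Cnp fell (-1.0 ± 0.28 and -1.31 ± 0.23), Cnp not without a batch term (-1.07, adjusted p = 0.131). S100b is also made by adipocytes, and read 11.31, 10.54, 11.12, 11.38 and 11.93 in the parous arrays, against 8.65, 8.30 and 8.46 in the lactation arrays. Lyve1, a hyaluronan receptor of lymphatic vessels and some macrophages, rose by 1.43 ± 0.26.

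Immune cell genes varied between parous glands. The mean of the B cell list was 8.46, 6.62, 9.57, 9.75 and 6.96 in the parous arrays, against 6.68, 6.83 and 6.70 in the lactation arrays. T cell genes averaged 8.71, 7.36, 9.47, 10.22 and 7.95 in the parous arrays, against 7.66, 7.44 and 7.32 in the lactation arrays. Parous arrays 1, 3 and 4 were thus high in both, parous array 2 was as low as the lactation arrays, and nulliparous array 3 (B cell mean 9.92, others 6.81 to 6.97) showed the same excess. Of 11 B cell genes 3 rose and of 17 T cell genes 2 rose, and none fell. The share of rises over all genes was 12.1%, near that of the T cell genes.

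Cr2, the complement receptor of B cells and follicular dendritic cells, read 8.30, 5.09, 9.73, 9.30 and 5.29 in the parous arrays, against 4.91, 5.50 and 4.77 in the lactation arrays and differed by 4.10 ± 1.35 (adjusted p = 0.0197). Its batch 2 term was 1.21, so it was not clear of batch. Ms4a1, which encodes CD20, and Cd3g, a chain of the T cell receptor complex, differed by 3.44 ± 1.22 (adjusted p = 0.0296) and 2.91 ± 1.10 (adjusted p = 0.0413). Cxcl13, which draws B cells into follicles, Ccl22, a chemokine of dendritic cells, Lef1 and Tcf7, factors of naive T cells, and Il22ra2, a decoy receptor for interleukin 22, rose by 2.56 ± 0.77, 2.38 ± 0.81, 2.62 ± 1.02, 2.62 ± 0.80 and 2.84 ± 1.10. Parous arrays 1, 3 and 4 were picked after the data were seen for their high lymphocyte genes, so smaller differences without them follow from that choice: these 8 genes, Mzb1 and Cmahp then had differences of 0.86 to 1.88 and none passed. Cmahp had ranked among the 15 largest rises at 2.61 ± 0.78. Leaving out single arrays also ended calls: Cr2 without parous array 3, Ms4a1 without parous array 3 or lactation array 2 or 3, Ccl22 without parous array 3 or lactation array 2 or 3, Cxcl13 without lactation array 3, and Lef1, Il22ra2 and Cd3g without most arrays (adjusted p of all these 0.0536 to 0.124). Without a batch term Cr2, Ms4a1, Lef1, Tcf7 and Il22ra2 did not pass, at 2.48, 2.29, 2.12, 1.75 and 1.84 (adjusted p 0.0512 to 0.126).

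**Figure D4:**
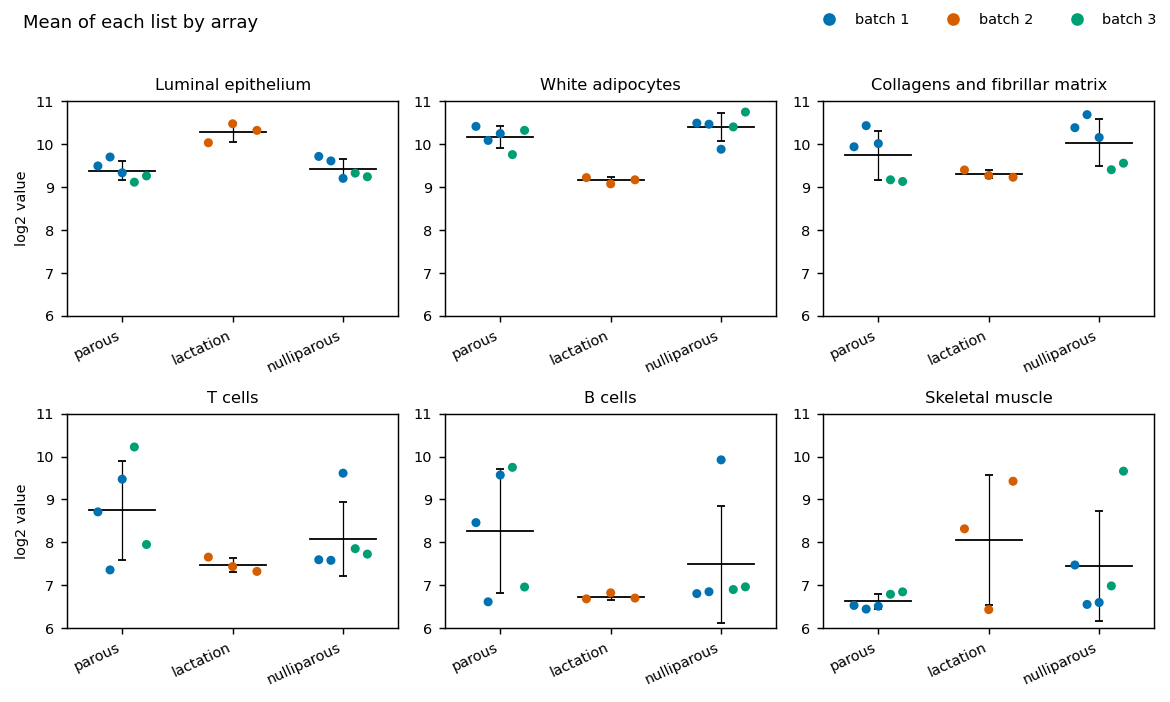
Mean log2 value of 6 gene lists in each parous, lactation and nulliparous array, coloured by batch; the line is the group mean and the bars are the SD (n = 5, 3 and 5). Luminal and adipocyte lists separate lactation from both adult groups, B and T cell lists are high in parous arrays 1, 3 and 4 and nulliparous array 3, and the muscle list is high in lactation arrays 1 and 3 and nulliparous array 5.

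Macrophage genes were mixed, with 4 of 19 up and 4 down, the falls near the 20.7% over all genes. Cd163 and Ctsk, of resident macrophages and of matrix breakdown, rose by 1.29 ± 0.39 and 1.31 ± 0.28, the first not without lactation array 3 (adjusted p = 0.0502) or without a batch term (0.89, adjusted p = 0.0531). The skeletal muscle list, 17 genes, gave no call in either direction, with a median of -1.36. Its mean was 6.53, 6.45, 6.51, 6.79 and 6.85 in the parous arrays, against 8.32, 6.43 and 9.42 in the lactation arrays, so lactation arrays 1 and 3 were high in muscle genes and array 2 was not. With that mean as a covariate, also chosen after the data were seen, 393 of the 404 clear genes were still called, and with lactation arrays 1 and 3 left out 344 were, in a fit with 1 lactation array, which is assumed to vary like the other groups. Lactation array 2 differed from the others in several epithelial genes as well (Krt7 11.62 against 8.97 and 10.46).

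Core clock genes changed in both directions. The clock runs on the activators CLOCK, NPAS2 and BMAL1, which switch on the Per and Cry genes that then repress them. Of 15 genes tested 6 rose and 3 fell, the falls near the 20.7% over all genes. Per2 read 10.05, 10.21, 9.59, 7.71 and 7.79 in the parous arrays, against 7.13, 7.14 and 6.67 in the lactation arrays. It rose by 2.58 ± 0.20 (adjusted p = 1.87e-10), and the groups did not overlap even though the parous arrays of batch 3 were below those of batch 1. Per3 differed by 1.44 ± 0.24 (adjusted p = 4.25e-05) and Per1 by 1.23 ± 0.30 (adjusted p = 0.00231), Per1 not without a batch term (0.83, adjusted p = 0.245). In both genes the groups overlapped. Per1 read 7.18 and 7.0 in parous arrays 4 and 5, below the 7.25 to 7.64 of the lactation arrays. Per3 read 8.19 to 10.01 in the parous arrays, against 7.8 to 8.46 in the lactation arrays. Dbp, an output factor of the clock, read 10.57, 10.93, 10.26, 9.64 and 10.01 in the parous arrays, against 9.48, 9.30 and 8.99 in the lactation arrays, a difference of 1.53 ± 0.26 (adjusted p = 5.43e-05). On the other side Npas2 had 8.78, 8.57, 9.12, 7.83 and 8.01 in the parous arrays, against 10.59, 10.33 and 10.88 in the lactation arrays and differed by -2.14 ± 0.23 (adjusted p = 6.43e-08). Bmal1 read 7.92, 7.32, 8.39, 8.37 and 8.0 in the parous arrays, against 9.56, 9.32 and 9.58 in the lactation arrays and differed by -1.45 ± 0.25 (adjusted p = 5.65e-05). Nfil3, the repressor that competes with DBP at its sites, fell too (-1.33 ± 0.20, adjusted p = 1.54e-05), while Cry1 did not pass (0.43 ± 0.19, adjusted p = 0.0716).

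The sequence TTATGTAA is a site that DBP and NFIL3 share, called the D-box, and it was searched on both strands. It occurred in 0.893% of promoters. The Per2 promoter, shown because Per2 had the largest clock difference, held 1 match, in capitals, that started 192 bases before the gene start. It is printed 5′ to 3′ from RefSeq in build GRCr8, chr9:99496944-99497243 (minus strand).
Per2: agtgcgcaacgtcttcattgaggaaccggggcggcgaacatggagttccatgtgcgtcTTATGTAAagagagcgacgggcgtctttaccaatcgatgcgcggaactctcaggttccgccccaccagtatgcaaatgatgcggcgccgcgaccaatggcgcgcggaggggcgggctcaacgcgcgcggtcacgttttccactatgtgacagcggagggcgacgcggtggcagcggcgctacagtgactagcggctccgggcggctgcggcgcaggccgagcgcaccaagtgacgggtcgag

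The time of day at which glands were taken is not in the labels read here, all animals of a stage were collected on 1 day, and the part of time of day in these differences was not tested. Nulliparous glands, collected at the same age as parous ones, had Per2 at 7.76 to 10.31 and Bmal1 at 7.62 to 8.23.

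**Figure D5:**
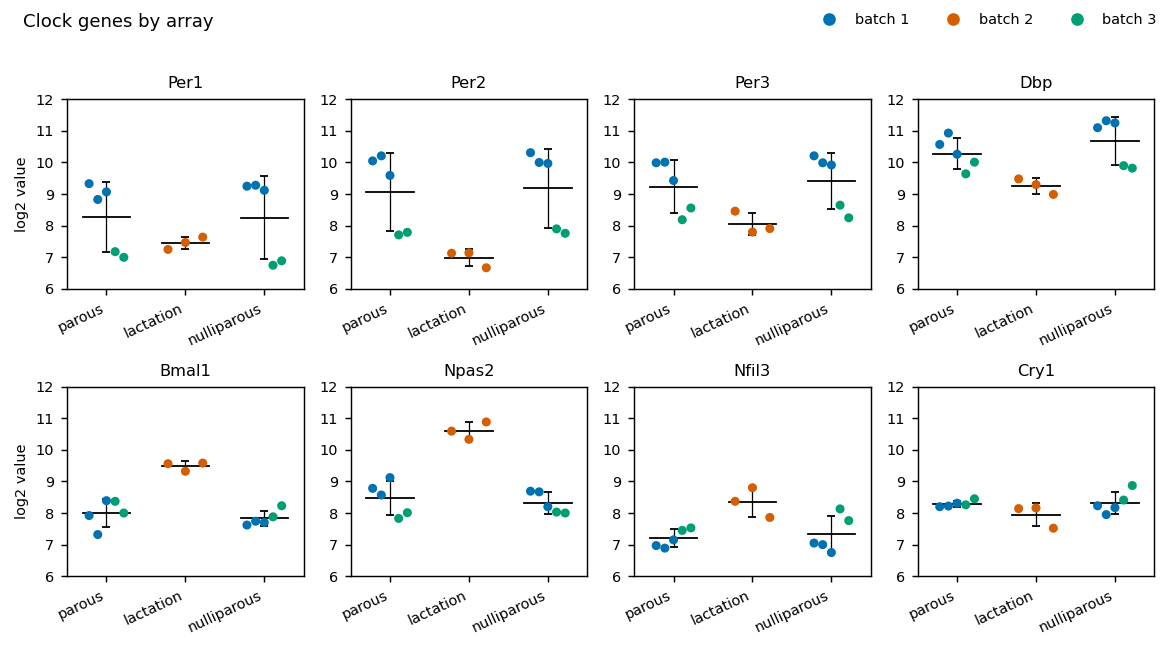
Deposited log2 values of 8 clock genes in each parous, lactation and nulliparous array, coloured by batch; the line is the mean and the bars are the SD (n = 5, 3 and 5). Per2, Per3 and Dbp are higher in the parous arrays of batch 1 than in the lactation arrays, Bmal1 and Npas2 are lower in every parous array, and batch 3 arrays are low in Per1, Per2 and Per3 in both adult groups.

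Prr27, a proline-rich protein gene beside the caseins, had the largest rise clear of batch, with 13.31, 13.37, 13.04, 12.65 and 12.42 in the parous arrays, against 11.59, 8.62 and 8.84 in the lactation arrays and a difference of 3.35 ± 0.77 (adjusted p = 0.00132). Its lactation arrays ranged over 3 log2 units, and every one was below every parous array. Cyp2b1, a drug-metabolising P450, read 8.31, 4.94, 7.95, 7.27 and 8.92 in the parous arrays, against 4.10, 3.94 and 4.0 in the lactation arrays and differed by 2.96 ± 0.59 (adjusted p = 0.000357); it entered the test only through the parous arrays, and its lactation values lay far below the filter, so the size is less exact. Clca1, a secreted regulator of chloride channels, Aqp5, a water channel, and Spink8, a serine protease inhibitor, rose by 2.61 ± 0.56, 2.59 ± 0.73 and 2.58 ± 0.30. The batch 3 term of Spink8, 2.78, was larger than its difference. The same held in size for Cdh1 and Slc7a1 among the falls clear of batch, with batch 3 terms of -2.07 and -1.31. Rspo3, which amplifies Wnt signals, Chrdl1, an antagonist of BMP ligands, and Aadat, an aminotransferase of kynurenine breakdown, rose by 2.54 ± 0.71, 2.48 ± 0.24 and 2.43 ± 0.49. Elapor1, a lysosome-associated membrane protein, rose by 2.41 ± 0.64. LOC691897, a gene without a symbol of its own, rose by 2.53 ± 0.83, but not without lactation array 3 (adjusted p = 0.117).

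The parous glands were also set against age-matched nulliparous glands. The 2 comparisons share the parous arrays, so their values are given side by side and nothing is drawn from their likeness. Batches 1 and 3 each held both adult groups. Of 10986 genes 2 passed (0.0182%), where 668 had an unadjusted p under 0.05, with 1 gene in each direction (0.0091% each): Mcpt8l2, a mast cell protease gene, was higher (0.68 ± 0.12, adjusted p = 0.0377) and Pcdh17, a protocadherin, lower (-1.18 ± 0.21, adjusted p = 0.036) in parous glands. With 1 array left out in turn the count ran between 0 and 8, with the 8 found without nulliparous array 3. None of the 404 clear genes was called between parous and nulliparous glands. Genes that were lower in parous than in lactating glands and clear of batch had a median difference of -1.44 from lactation and -0.04 from nulliparous glands, with 0 of 203 at least 2-fold from nulliparous glands. Those that were higher had medians of 1.35 and -0.16, with 2 of 201 at least 2-fold from nulliparous glands. Over all 10986 genes only 35 were at least 2-fold apart there, so these counts are not particular to the clear genes. The median size of the parous minus nulliparous difference was 0.09 over all genes, 0.12 in the clear falls and 0.23 in the clear rises.

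None of the milk protein genes passed in this comparison. Csn1s2b differed by 0.25 ± 0.15 between parous and nulliparous glands, Wap by -0.01 ± 0.64 and Lpo by 0.18 ± 0.17. Of the antibody transfer and plasma cell list, Pigr differed by 0.98 ± 0.23, with 8.11 to 9.75 in parous arrays against 7.19 to 8.35 in nulliparous arrays. Mzb1 of that list differed by 1.12 ± 0.46, and neither passed (adjusted p = 0.259 and 0.711). Collagen and adipocyte lists had medians of -0.29 and -0.28 against nulliparous glands, with no member called. A difference that misses the threshold with 5 arrays a group does not show that the glands were alike; the median SE of this comparison was 0.12 on the log2 scale, against 0.17 for parous against lactating glands.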

How the data were processed

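Gland RNA of female Sprague-Dawley rats at 6 stages was measured on 33 whole-transcript arrays. The authors deposited 1 table of log2 values (36685 probe sets). Per the submitters' processing notes they used RMA, the robust multi-array average, in Affymetrix Expression Console. Neither versions nor a genome build are named there. Deposited log2 values ran from 2.405 to 14.228, values near the top can be compressed, and the number of arrays limits the precision.

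Probe sets with exactly 1 symbol in the platform annotation were used (18511; 575 had several and 17599 none listed), 18394 of them matched to a RefSeq gene table by gene identifier. Of 18166 symbols, 291 had several probe sets, and the brightest over all arrays was kept. Genes above 7.645, the median of all values, in at least 3 arrays were tested (10986).

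Groups came from the stage label, and batch and kit from the labels. A linear model with 6 stages and 3 batches was fitted to all 33 arrays, gene by gene, in R 4.3.3 with limma 3.58.1 (25 residual degrees of freedom, moderated variances with an intensity trend, Benjamini-Hochberg adjustment over the 10986 genes, two-sided). Differences include the batch terms and can differ from the difference of group means. The members, the gene lists and the tests were chosen with earlier results of these data known. Most named genes were drawn from a rule. It took the 15 largest rises and 15 largest falls clear of batch, and a panel of milk, hormone, adipose and matrix genes. From each list it took up to 5 called members of smallest adjusted p and up to 3 others by role. Fasn was not analysed here, and Krt14 of the planned panel was not named. Aadat and Elapor1 ranked below the 15 largest rises and were named beside them. The genes Myo6, Nr2f1, Slc7a10 and Vcam1 are outside the rule and only mark the edge of the ratio. Promoter sequences came from RefSeq (build GRCr8) through the gene identifier.

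The procedure was tested on simulated arrays. Alternatives were other batch terms, filters, normalizations, probe set means, array weights, thresholds, subsets of arrays and each array left out in turn. Python 3.11.15 and matplotlib 3.10.9 made tables and figures.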

Additional observations from a re-analysis of the deposited data

Results flagged for a closer look

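Within groups of 5 arrays, 1 array stood far from the other 4 for some of the genes and list means reported here, by its gap to the nearest other array over the range of the group. Of 426 such groups looked at 23 met the criterion, and chance gives about 1 in 20; the lactation group, with 3 arrays, was too small for this.

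Nulliparous array 3 stood apart most often. It was high in Ccl22 (8.88, others 6.71 to 7.29), Lef1 (10.13, others 7.15 to 7.73), Il22ra2 (10.17, others 6.66 to 7.36), Tcf7 (10.83, others 7.74 to 8.59), Cr2 (10.31, others 4.96 to 5.35) and Cmahp (10.59, others 8.69 to 9.0). It was also high in the list means of B cells (9.92, others 6.81 to 6.96), T cells (9.61, others 7.58 to 7.85), antibody transfer and plasma cells (9.25, others 8.45 to 8.56) and antigen presentation (10.05, others 9.20 to 9.38). In Cd14 (10.19), Mmp12 (9.25) and Aadat (9.77) the same array was low. Parous arrays 1, 3 and 4 were high in the same lymphocyte genes but, being 3 of 5, met no such criterion.

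Parous array 5 was high in Wfdc18 (7.91, others 5.4 to 5.84) and Acvr1c (9.77, others 8.44 to 8.77) and low in Socs3 (6.62, others 7.68 to 7.95). Parous array 4 was low in Slc36a2 (7.60) and Pmp22 (11.30), and parous array 2 was high in Lao1 (8.73). Nulliparous array 1 was low in Fabp3 (10.07, others 11.34 to 11.72) and in the whey protein list mean (10.16, others 10.68 to 10.79), and nulliparous array 4 was low in Clec2dl1 (6.18) and Slc1a5 (9.44). None of these was weighed further.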

How the results depend on the processing

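No paired analysis was possible because the replicate numbers were given in accession order and pair no arrays. The count of 3610 called genes went to 1211 with the parous arrays of batch 3 only, to 967 with only the parous and lactation arrays and no batch term, to 1789 with pubertal and adult stages only, to 2245 at an adjusted p under 0.01 and to 70 when tested against a 2-fold minimum, and ran between 2992 and 3779 with 1 array left out. The 404 clear genes went to 710 without a batch term, to 62 against the 2-fold minimum and to 730 without lactation arrays 1 and 3 (added after the data were seen, a fit with 1 lactation array, in which groups overlap less easily), and ran between 372 and 538 with 1 array left out; 392 of the 404 were still called without a batch term, 395 without batch 3 and 266 with the parous arrays of batch 3 only. The 2 genes called between parous and nulliparous glands became 1 without a batch term, 0 without batch 3, 4 with no filter and 0 after quantile normalization, and 0 to 8 with 1 array left out. Smaller counts follow in part from fewer arrays or a stricter threshold; for the rest the cause was not tested.

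Of 146 named genes that were called between parous and lactating glands, 113 still passed in the same direction without a batch term, 132 with the B cell covariate, which is made of the lymphocyte genes themselves, and 81 with only the 2 groups. Dapk1 was the called gene whose sign turned, to -0.15 without a batch term and with only the 2 groups. The other turns were in genes that had not passed: Esr1 went to 0.047 without batch 3 and with pubertal and adult stages only, 0.001 after quantile normalization, 0.066 with the muscle covariate, 0.267 with the B cell covariate, 0.215 without lactation arrays 1 and 3, and ran between -0.172 and 0.127 with 1 array left out. Elf5 went to 0.14 with pubertal and adult stages only, 0.061 after quantile normalization, 0.013 with the muscle covariate, 0.62 with the B cell covariate, 0.34 without lactation arrays 1 and 3, 0.20 without parous arrays 1, 3 and 4, and ran between -0.222 and 0.111 with 1 array left out. Btn1a1 went to 0.033 with the parous arrays of batch 3 only, 0.45 with the B cell covariate and 0.12 without lactation arrays 1 and 3, Csn2 to 0.18 with pubertal and adult stages only, and Csn1s1 and Pcdh17 to 0.036 and 0.028 with the B cell covariate. Over all genes the median difference stayed between -0.14 and 0.00 in the settings run. The 3 lactation arrays, all in 1 batch, limit the precision of every difference.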

Other observations

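Other gene groups gave few calls between parous and lactating glands. Among 38 genes for protein folding and export in the endoplasmic reticulum 3 rose and 7 fell, and of 39 cytosolic ribosomal protein genes 6 rose and none fell. In oxidative phosphorylation 2 of 40 rose and 2 fell. Interferon response genes had 2 falls and no rise among 22, and mast cell genes 2 rises and no fall among 9. Immediate early genes, which respond within minutes to handling of tissue, had 3 rises and 3 falls among 18, and cytosolic heat shock genes 2 rises and 1 fall among 13. Endothelial genes had 4 rises and 1 fall among 17. In the list of lipoxygenases, prostaglandin and xenobiotic enzymes 5 of 17 rose and 4 fell, and of 10 genes of antigen presentation 1 rose. Alveolar and luminal progenitor genes had 2 falls and no rise among 11. In all of these lists the share called lay near or below the 32.9% called over all genes, except for the xenobiotic enzymes with 9 of 17.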
